A study of Mus musculus with 7 samples.

Results

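The nuclear-encoded subunits of oxidative phosphorylation were followed in CD4+CD25+ cells sorted from mouse liver. A gene was a member if it was annotated as protein-coding, if its symbol began with Ndufa, Ndufb, Ndufc, Ndufs, Ndufv, Uqcr, Cox4, Cox5, Cox6, Cox7, Cox8 or Atp5 or was Sdha, Sdhb, Sdhc, Sdhd or Cyc1, and if it held at least 70 counts over the 7 libraries. Ndufaf assembly factors were left out. The rule found 78 members among the 53465 gene identifiers of the count table, of which 21106 had a count. Complex I contributed 35 members (7 core and 28 accessory subunits), complex II 4, complex III 9, complex IV 13 and complex V 17.

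RNA was taken from cells that were stained and sorted by flow cytometry, and one gene count was deposited per gene and library. The groups were CD73 KO mice on a methionine and choline deficient diet (KO_MCD, 3 libraries), wild-type C57BL/6 mice on the same diet (WT_MCD, 2 libraries) and wild-type C57BL/6 mice on a normal control diet (WT_NCD, 2 libraries). All mice were fed for 4 weeks, and no group of CD73 KO mice on the control diet was analysed here. The study's stated purpose was to examine CD73 on hepatic regulatory T cells in fatty liver disease. Neither the age of the mice, nor the deleted stretch of the CD73 gene, nor whether each library came from a separate animal is given in the labels, so a p-value here reflects the spread among these libraries and nothing wider.

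Oxidative phosphorylation is carried out in the inner mitochondrial membrane. Complexes I and II pass electrons from NADH and succinate to ubiquinone, complex III passes them to cytochrome c, complex IV passes them to oxygen, and complex V uses the resulting proton gradient to make ATP. All subunits of complex II, and most subunits of the others, are encoded in the nucleus, while a small set in complexes I, III, IV and V is encoded in mitochondrial DNA. Regulatory T cells are known for a high reliance on oxidative phosphorylation compared with conventional effector T cells.

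Libraries held 19731501 to 24398738 counts, so 3 counts corresponded to 0.123 to 0.152 CPM (counts scaled to a common library size). Nt5e, which encodes CD73, had 5.88, 14.5 and 6.43 CPM in KO_MCD libraries, 177 and 87.6 CPM in WT_MCD libraries, and 243 and 241 CPM in WT_NCD libraries. Nt5e levels in KO_MCD libraries lay below those of every wild-type library. T cell genes were present in every library, and the summed level of 9 of them was 6424, 7067 and 7817 CPM in KO_MCD, 10580 and 5380 CPM in WT_MCD, with 9527 and 14583 CPM in WT_NCD. The summed level of 5 genes of regulatory T cells was 1416, 1667 and 1545 CPM in KO_MCD, 2089 and 694 CPM in WT_MCD, with 1269 and 1744 CPM in WT_NCD. Genes of macrophages and Kupffer cells were present too. The summed level of 12 such genes was 12697, 9491 and 7408 CPM in KO_MCD, 2416 and 32876 CPM in WT_MCD, with 10792 and 1179 CPM in WT_NCD. WT_MCD replicate 2 and WT_NCD replicate 1 therefore stood highest in macrophage genes within their groups. They are called the libraries highest in macrophage genes below. By this sum KO_MCD replicate 1 stood above WT_NCD replicate 1 but was kept. Lyz2 made up most of the sum, with 11324 CPM in KO_MCD replicate 1 and 7757 CPM in WT_NCD replicate 1. The median of the 12 genes, as log2 CPM minus the mean of the group means, had the other order. It was -0.53 in KO_MCD replicate 1 and 1.58 in WT_NCD replicate 1. Counts of members with a fitted value above 0, and some of the fold changes that moved, are given below with and without WT_MCD replicate 2 and WT_NCD replicate 1. The sum of 5 erythroid genes was 17.9, 4.71 and 34.5 CPM in KO_MCD, 26.0 and 329 in WT_MCD, and 51.3 and 51.8 in WT_NCD. That of 12 hepatocyte genes was 0.971, 7.70 and 6.19 CPM in KO_MCD, 7.30 and 63.2 in WT_MCD, and 46.2 and 15.6 in WT_NCD. Lists of 6 natural killer cell genes and 6 B cell genes were also read, with a fitted value above 0 for 6 and 6 in KO_MCD over WT_NCD, for 1 and 6 in KO_MCD over WT_MCD, and for 6 and 5 in WT_MCD over WT_NCD. Of all genes, 52.8%, 47.9% and 52.3% were above 0 in the same order. Natural killer cell genes summed to 60.9, 60.2 and 97.4 CPM in KO_MCD, 96.9 and 171 in WT_MCD, and 13.7 and 5.11 in WT_NCD. B cell genes summed to 892, 810 and 305 CPM in KO_MCD, 152 and 265 in WT_MCD, and 153 and 108 in WT_NCD. None of the natural killer and B cell genes passed the test, and the part of such cells in the subunit results was not tested. In bulk RNA of this kind, fewer cells of a type and less RNA per cell cannot be told apart.

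The summed counts of the 78 subunit genes took 0.599%, 0.490% and 0.790% of all counts in the KO_MCD libraries, 0.626% and 0.685% in the WT_MCD libraries, and 0.588% and 0.863% in the WT_NCD libraries. Counting error was small beside these differences, since the 95% Wilson half-width was at most 0.00388 percentage points. The ranges of the 3 groups overlapped. Both the lowest and the second highest share belonged to KO_MCD libraries.

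Levels were compared between genes as CPM per kilobase of transcript, averaged over the 3 group means. Atp5b, the catalytic beta subunit of ATP synthase, stood highest with 718 CPM per kb. Cox7a2l, a factor that joins complexes III and IV into supercomplexes, followed with 376, and Atp5c1, the central stalk subunit of ATP synthase, with 312. Sdhd, a membrane anchor of succinate dehydrogenase, reached 266 CPM per kb, and Sdha, its flavoprotein, reached 221. The 4 complex II genes had a median of 168 CPM per kb, above the medians of 48.9 for complex I core subunits, 45.9 for complex V, 39.1 for complex IV, 31.0 for complex III and 19.4 for complex I accessory subunits.

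Within complexes the span was wide. Complex I ran down to 1.24 CPM per kb for Ndufb2 while Ndufb7, another accessory subunit, had 135. Complex III ran from 93.8 for Cyc1, the cytochrome c1 heme protein, to 9.48 for Uqcrh, the hinge protein. Complex IV ran from Cox7a2l to Cox7c with 5.65, and complex V from Atp5b to Atp5s with 2.16. Atp5s is a coupling or assembly factor and Cox7a2l a supercomplex factor, and both were counted by their names. Apart from Atp5s, such low values stand for subunits that respiring cells use, and many small subunit genes have processed pseudogenes of near-identical sequence. The sources used here do not say how reads that match several places were counted, so the levels of the lowest members are uncertain. The order of the members by CPM was similar in every pair of libraries, with Spearman correlations of 0.94 to 0.982 over the 78 genes, as a description.

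**Figure D1:**
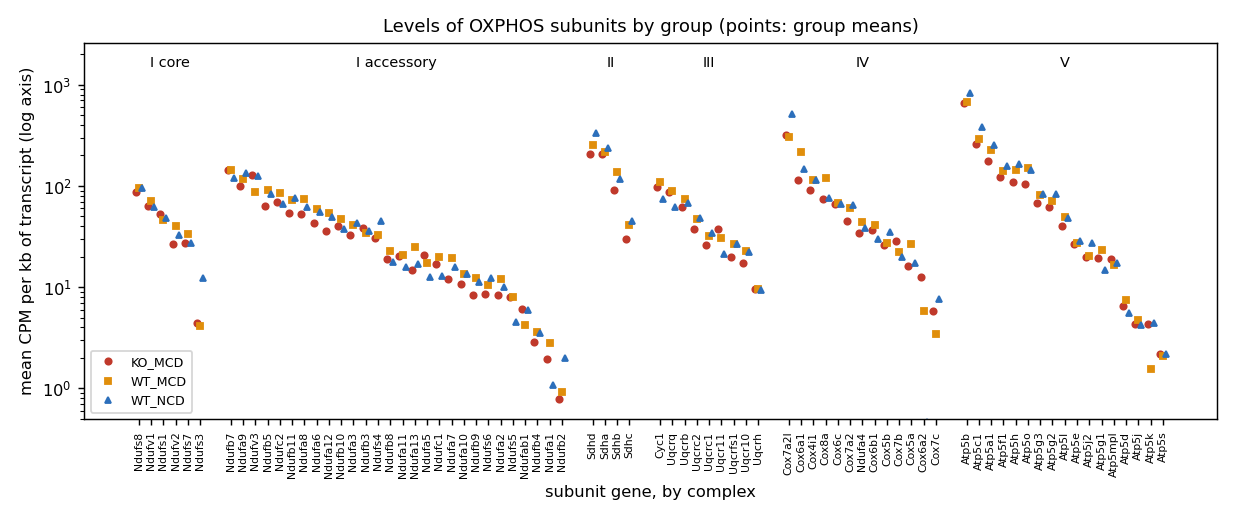
Mean CPM per kilobase of transcript (log axis) of the subunit genes, 1 of which is not shown, in KO_MCD, WT_MCD and WT_NCD, ordered by level within each complex. Points are group means of 3, 2 and 2 libraries. Atp5b at 718 CPM per kb is the highest and Ndufb2 at 1.24 the lowest.

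At the edge of the rule, Ndufa1 with 120 counts and Atp5k with 164 counts over the 7 libraries were just inside. Cox6b2 with 54 counts, Ndufb6 with 53, Cox4i2 with 13 and Cox7a1 with 3 were just outside, and Ndufa4l2, Cox7b2, Cox8b and Cox8c had 0 counts. With the exception of the complex I subunit Ndufb6, these 8 genes were paralogs of the common complex IV subunits, most of them known from particular tissues. Every member had a count in every library and passed the low-count filter.

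Among the isoform pairs, the common form dominated. Cox4i1, the common form of the regulatory subunit IV, had 62.7, 30.8 and 114 CPM in KO_MCD, 62.4 and 111 CPM in WT_MCD, with 80.6 and 92.0 CPM in WT_NCD, while Cox4i2, the lung and hypoxia form, held 3 counts in 1 KO_MCD library and 10 counts in 1 WT_NCD library. The membrane ring of ATP synthase is built from one protein encoded by Atp5g1, Atp5g2 and Atp5g3. Atp5g1 took 34.0%, 39.6% and 40.0% of their summed counts in KO_MCD, 34.6% and 41.2% in WT_MCD, and 29.6% and 24.8% in WT_NCD. The share of Atp5g1 was higher in each of the 5 deficient-diet libraries than in both control-diet libraries, and no test was run on this share. In CPM, Atp5g1 had 46.8, 36.2 and 72.4 in KO_MCD, 47.2 and 77.8 in WT_MCD, and 34.5 and 44.0 in WT_NCD, and its KO_MCD and WT_NCD libraries overlapped.

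Cox6a2 was the member with the largest difference between groups in both comparisons against WT_NCD. It encodes the heart and skeletal muscle form of subunit VIa of cytochrome c oxidase, whereas Cox6a1 encodes the form used in most tissues. The gene lies on the minus strand of mouse GRCm38 at chr7:128205435-128206387. Cox6a2 had 6.07, 3.76 and 15.7 CPM in KO_MCD libraries, 2.04 and 5.88 CPM in WT_MCD libraries, and 0.455 and 0.172 CPM in WT_NCD libraries. All 5 deficient-diet libraries lay above both control-diet libraries, and the KO_MCD and WT_MCD libraries overlapped. The control-diet values rest on 9 and 4 counts. Taken singly, WT_MCD lay wholly above WT_NCD in 16.8% of all genes and KO_MCD in 13.4%, and the share with both was not counted.

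The fitted log2 fold change of Cox6a2 was 4.74 (SE 1.36) for KO_MCD over WT_NCD and 3.64 (SE 1.33) for WT_MCD over WT_NCD. Neither passed the threshold of 0.05 with edgeR's quasi-likelihood test, where the adjusted p-values over all genes were 0.413 and 0.793. DESeq2 gave the KO_MCD over WT_NCD difference as 4.77 with an adjusted p of 0.00259, and adjusted p ran from there to 0.823 over the alternatives tried. For KO_MCD over WT_MCD the fitted value was 1.10 (SE 1.12, edgeR adjusted p = 1), and it was 2.05 without WT_MCD replicate 2 and 0.31 without KO_MCD replicate 3. Without both libraries highest in macrophage genes, the values against WT_NCD were 5.58 for KO_MCD and 3.53 for WT_MCD.

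The share of the muscle form in subunit VIa counts was followed in each library. Cox6a2 took 11.8% (exact 95% interval 9.92 to 13.9), 12.1% (9.77 to 14.8) and 11.1% (10 to 12.3) of the summed Cox6a1 and Cox6a2 counts in the KO_MCD libraries. The WT_MCD libraries had 2.48% (1.81 to 3.31) and 3.45% (2.85 to 4.13), and the WT_NCD libraries 0.553% (0.253 to 1.05) and 0.201% (0.0547 to 0.513). The 3 groups did not overlap in this share, and the intervals cover counting error only. No test was run on this ratio, which was chosen after its values were seen.

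Cox6a1 itself had 45.4, 27.3 and 125 CPM in KO_MCD libraries, 80.5 and 165 CPM in WT_MCD libraries, and 81.9 and 85.5 CPM in WT_NCD libraries. Its fitted log2 fold change for KO_MCD over WT_MCD was -0.90 (SE 0.63), with an adjusted p of 1 in edgeR, and the libraries overlapped. This value was -0.29 without WT_MCD replicate 2 and -1.75 without KO_MCD replicate 3, and -1.72 with the replicate block. Siglech, a marker of plasmacytoid dendritic cells, had 261, 113 and 589 CPM in KO_MCD, 122 and 129 CPM in WT_MCD, with 20.4 and 14.7 CPM in WT_NCD. The summed level of 10 genes of these cells, listed after the data were seen, was 1349, 920 and 1977 CPM in KO_MCD, 771 and 1212 CPM in WT_MCD, with 354 and 286 CPM in WT_NCD, and all 10 had a count in the series. Fitted values were above 0 for 9 and below 0 for 1 in both comparisons against WT_NCD, and for 8 and 2 in KO_MCD over WT_MCD. Bst2, also listed, had 135, 80.1 and 155 CPM in KO_MCD and 182 and 136 CPM in WT_NCD. The part of plasmacytoid dendritic cells in the Cox6a2 result was not tested. Itgad, which shares exon bases with Cox6a2 on the opposite strand, had 0 counts in all 3 KO_MCD libraries, 0 and 30 counts in WT_MCD, and 0 and 31 counts in WT_NCD.

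**Figure D2:**
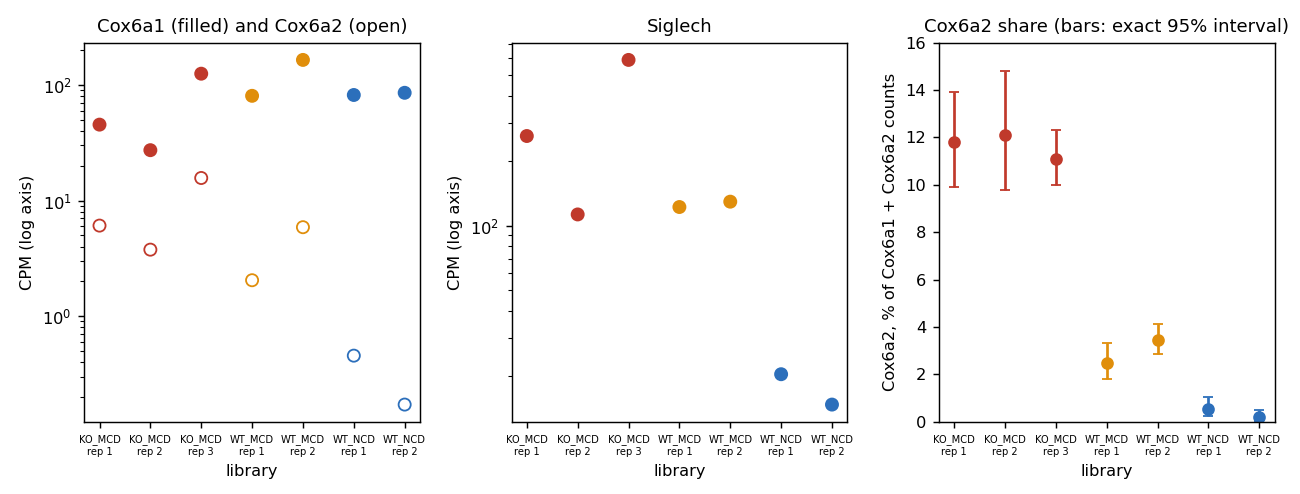
Left, CPM (log axis) of Cox6a1 (filled) and Cox6a2 (open) in each library. Middle, CPM (log axis) of Siglech. Right, Cox6a2 as a percentage of Cox6a1 plus Cox6a2 counts with exact 95% intervals, which is 11.1% to 12.1% in KO_MCD, 2.48% and 3.45% in WT_MCD, and 0.201% and 0.553% in WT_NCD.

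The members were also described library by library. Each library was described by the median over the 78 members of log2 CPM minus the mean of the 3 group means. It was -0.20, -0.52 and 0.33 in the KO_MCD libraries, -0.15 and 0.37 in the WT_MCD libraries, and -0.01 and 0.11 in the WT_NCD libraries. The highest values belonged to KO_MCD replicate 3 and WT_MCD replicate 2, where 66 and 70 of the 78 members lay above 0. The lowest belonged to KO_MCD replicate 2, where 10 did. The pooled within-group SD of these medians was 0.356, and all differences between group means were smaller than it.

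The library medians were also taken by complex. In KO_MCD replicate 2 those of the 6 subunit classes ran from -0.65 for complex V to -0.23 for complex I core subunits. In KO_MCD replicate 3 they ran from 0.02 for complex I core subunits, of which 4 of 7 were above 0, and 0.06 for complex II to 0.57 for complex IV, and in WT_MCD replicate 2 from 0.30 for complex V to 0.55 for complex IV. The median over all 14784 tested genes stayed between -0.06 and 0.11 in every library and was 0.03 in KO_MCD replicate 3, so complex I core subunits there lay near all genes.

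The spread of single subunits within groups was set beside that of other genes. The median within-group SD of log2 CPM was 0.50 for members, against 0.76 for all tested genes and 0.57 for the 9442 other genes of like level. Cyc1 was the steadiest member by its range, with a 1.5-fold ratio of its highest to its lowest library, and Ndufb2, with 1 count in KO_MCD replicate 3, had the widest at 149-fold.

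The deviations of the members were set beside their transcript length and their level. Over the 78 members the Spearman correlation between transcript length and the deviation was -0.48 in KO_MCD replicate 3, -0.33 in WT_MCD replicate 2 and 0.35 in WT_NCD replicate 2, and between -0.04 and 0.19 in the other libraries. With the members' level, the correlation was -0.29 in KO_MCD replicate 3, -0.29 in WT_MCD replicate 2 and 0.51 in WT_NCD replicate 2, and between -0.20 and 0.17 in the other libraries. These are descriptions over genes that share a library, and the part of length or level in the library medians was not tested. Of 39 members under the median length of 751 bases and 39 at or above it, 26 and 17 had a fitted value above 0 for WT_MCD over WT_NCD (medians 0.12 and -0.02). For KO_MCD over WT_MCD these counts were 10 and 7 (medians -0.21 and -0.26), and for KO_MCD over WT_NCD 15 and 11 (medians -0.09 and -0.32).

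**Figure D3:**
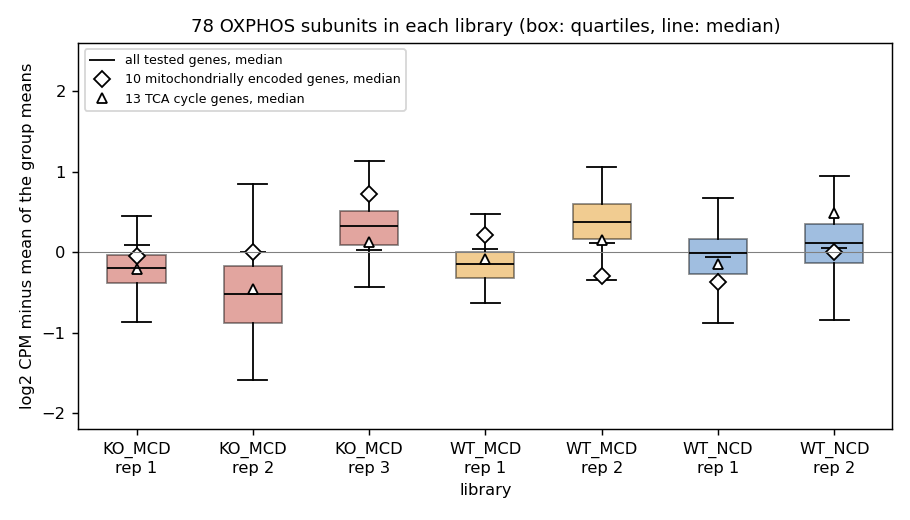
Log2 CPM minus the mean of the group means for the 78 subunit genes in each library (box, quartiles; line, median), with the medians of all tested genes, mitochondrially encoded genes and tricarboxylic acid cycle genes. The member medians of KO_MCD replicate 3 (0.33) and WT_MCD replicate 2 (0.37) are the highest and that of KO_MCD replicate 2 (-0.52) the lowest.

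**Figure D4:**
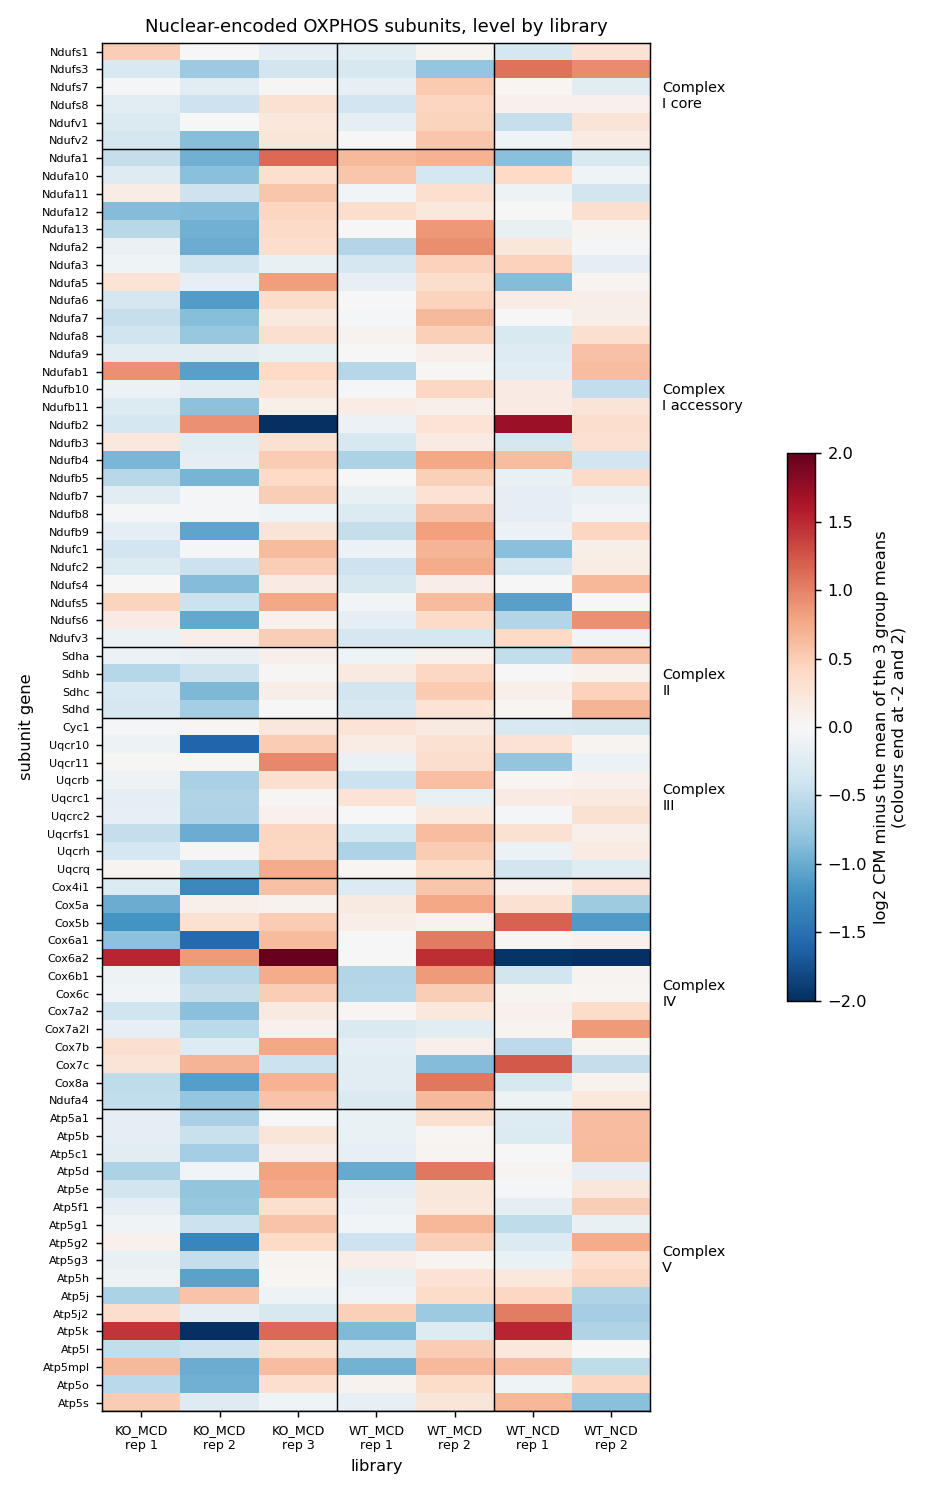
Log2 CPM minus the mean of the group means for the subunit genes (rows, by complex, 1 gene not shown) in each library (columns). Colours end at -2 and 2. Most rows are blue in KO_MCD replicate 2 and red in KO_MCD replicate 3 and WT_MCD replicate 2, and Cox6a2 stands out as low in both WT_NCD libraries.

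Promoter sequences of the subunit genes were read because most members were high or low in the same libraries. RefSeq promoters of 300 bases (250 before to 50 after the first listed start, build GRCm38.p6) were found for 62 of the 78 members. Other starts of a gene were not searched. Each was searched on both strands for short motifs of factors known to act on respiratory genes, and no matches of different motifs overlapped in any member. The NRF1 motif, GCGCA and GCGC around any 1 base, was present in 25.8% of member promoters and 6.6% of 17491 protein-coding promoters. The ETS motif CCGGAAG, bound by GABPA, was present in 22.6% of member promoters and 11.9% of all, the YY1 motif AAGATGGC in 12.9% and 3.22%, and the CCAAT box in 41.9% and 39%. At least 1 of the NRF1, ETS and YY1 motifs was found in 33 of the 62 member promoters (53.2%), against 19.5% of all. Median GC content was 57.8% in member promoters and 56.3% in all. A match is a description of letters and not a site of binding.

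The stretches printed are from the complex II genes Sdha and Sdhd, which hold NRF1 matches, from Cox6a1, the partner of Cox6a2, and from Ndufs3 and Cox7a2l, whose libraries did not overlap between the diets in wild type. All are on the minus strand, 5′ to 3′, with motif matches in capitals (the NRF1 motif, and CCGGAAG or its complement CTTCCGG for ETS). They lie at chr13:74350319-74350348, chr13:74350276-74350305 and chr13:74350241-74350270 for Sdha, chr9:50603909-50603938 and chr9:50603878-50603907 for Sdhd, chr5:115348982-115349129 for Cox6a1, chr2:90904731-90904760 for Ndufs3 and chr17:83514334-83514493 for Cox7a2l. The Cox7a2l, Ndufs3 and last Sdha stretches, and part of the middle Sdha stretch, lie before the listed start but inside the annotated span of the gene. Where annotated exons covered most of a window, only a short stretch around a match is printed.
Sdha, first NRF1 match: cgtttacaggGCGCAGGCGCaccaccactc
Sdha, middle NRF1 match: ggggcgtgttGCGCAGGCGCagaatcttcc
Sdha, last NRF1 match: cgacacccgcgcgactcggtGCGCAAGCGC
Sdhd, NRF1 match: tcgctggggtGCGCACGCGCggtggcagcg
Sdhd, ETS match: accgtctcctgcCTTCCGGttcacgcttca
Ndufs3, the match farther upstream of 2 ETS matches: ccccgcgtccgcCCGGAAGaagagtcactg
Cox6a1, stretch with both NRF1 matches: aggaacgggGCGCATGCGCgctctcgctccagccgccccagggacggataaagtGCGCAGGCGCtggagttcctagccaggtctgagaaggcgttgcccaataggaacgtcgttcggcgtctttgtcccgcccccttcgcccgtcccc
Cox7a2l, stretch with no match: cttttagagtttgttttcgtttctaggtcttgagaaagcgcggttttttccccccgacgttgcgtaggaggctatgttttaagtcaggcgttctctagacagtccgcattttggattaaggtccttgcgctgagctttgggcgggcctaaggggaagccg

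The library medians were also taken separately for members with and without a match. The library medians of the 33 members with an NRF1, ETS or YY1 match were -0.19, -0.44 and 0.33 in KO_MCD, -0.16 and 0.39 in WT_MCD, and -0.09 and 0.09 in WT_NCD. Those of the 29 members without one were -0.29, -0.53 and 0.34 in KO_MCD, -0.07 and 0.30 in WT_MCD, and 0.0023 and 0.12 in WT_NCD. Both sets were highest in KO_MCD replicate 3 and WT_MCD replicate 2 and lowest in KO_MCD replicate 2.

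The deficient diet was compared with the control diet in wild-type mice. No subunit gene passed the test, as no gene of the 14784 tested did (background 0.0%, edgeR quasi-likelihood test with Benjamini-Hochberg adjustment), and the smallest adjusted p among members was 0.793. At an unadjusted p under 0.05 edgeR gave 1 member, Cox6a2, against 887 genes (6.0%), DESeq2 called 0 members against 2.08% of genes at adjusted p, and limma voom called 0 of both. The fitted value was above 0 for 43 members and below 0 for 35, against 52.3% of all genes above 0. The median log2 fold change was 0.03 for members and 0.04 for all genes. Upper quartile scaling turned the split to 35 above 0, and without WT_MCD replicate 2 it was 22. Without both libraries highest in macrophage genes it was 19, with a median of -0.31, against a median of 0 for all genes. In that fit 5 of the 28 accessory subunits of complex I were above 0, against 18 with all libraries. The complex II median was -0.75, against -0.14 with all libraries. Sdha, Sdhb, Sdhc and Sdhd were -0.67, 0.11, -0.82 and -1.01, against -0.14, 0.26, -0.14 and -0.39. Atp5c1 was -0.79, against -0.40.

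In 12 of the 78 members the WT_MCD and WT_NCD libraries did not overlap, against 31.6% of all genes. WT_MCD was higher in 7 of them (16.8% of all genes) and lower in 5 (14.8% of all genes). Cyc1 had 170 and 160 CPM in WT_MCD, against 114 and 113 CPM in WT_NCD, a fitted log2 fold change of 0.54 (SE 0.27, edgeR adjusted p = 0.808). Its replicates lay close together in both groups. Uqcrq, a small subunit of complex III, had 39.8 and 50.4 CPM in WT_MCD, against 30.1 and 32.9 CPM in WT_NCD.

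Ndufs3, a core subunit of the peripheral arm of complex I, had 5.07 and 3.68 CPM in WT_MCD, against 13.6 and 12.3 CPM in WT_NCD. It was fitted at -1.57 on the log2 scale (SE 0.80, edgeR adjusted p = 0.808). The KO_MCD libraries, with 5.10, 3.81 and 4.91 CPM, lay in the range of WT_MCD or just above it, so that all 5 deficient-diet libraries were below both control-diet libraries. Taken singly, WT_MCD lay wholly below WT_NCD in 14.8% of all genes and KO_MCD in 12.8%, and the share with both was not counted. Ndufs3 shares exon bases with Kbtbd4 on the opposite strand, and the sources used here do not say whether the counting used strand. Cox7a2l had 323 and 343 CPM in WT_MCD, against 411 and 713 CPM in WT_NCD, a log2 fold change of -0.76 (SE 0.36, edgeR adjusted p = 0.808). It was -0.30 without WT_NCD replicate 2 and -1.14 without both libraries highest in macrophage genes. Ndufv3, a small subunit of the flavoprotein part of complex I, had 56.7 and 56.4 CPM in WT_MCD, against 94.5 and 69.0 CPM in WT_NCD.

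The effect of genotype on the deficient diet was addressed by KO_MCD against WT_MCD. No subunit gene passed (edgeR adjusted p = 1 for every gene, background 0.0%), and 0 members had an unadjusted p under 0.05, against 3.25% of genes. DESeq2 called 0 members against 0.237% of genes, and limma voom called 0 of both. The fitted value was below 0 for 61 of the 78 members and above 0 for 17, against 47.9% of all genes above 0. The median log2 fold change was -0.26 for members and -0.03 for all genes.

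The direction and its distance from all genes depended on single libraries. Besides macrophage genes, WT_MCD replicate 2 was highest in the erythroid, hepatocyte and natural killer cell lists, and lowest in regulatory T cell genes. The part of such cells was not tested. Without WT_MCD replicate 2, the library highest in macrophage genes, 48 members (61.5%) were above 0 with a median of 0.11, while 54.9% of all genes were above 0 with a median of 0.11 in that fit. The members thus lay near all genes there. Without both libraries highest in these genes the members gave the same values, and 55.6% of all genes were above 0 with a median of 0.12. Without KO_MCD replicate 2, 30 members were above 0 with a median of -0.11. Without scaling beyond total counts 26 were above 0.

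By complex, the fitted value was below 0 for 5 of 7 core and 22 of 28 accessory subunits of complex I, 4 of 4 subunits of complex II, 7 of 9 of complex III, 9 of 13 of complex IV and 14 of 17 of complex V. Without both libraries highest in macrophage genes it was below 0 for 3 core and 11 accessory subunits of complex I, 1 of complex II, 4 of complex III, 4 of complex IV and 7 of complex V. The libraries of KO_MCD and WT_MCD did not overlap in 4 members, against 18.0% of all genes, with KO_MCD higher in 1 (8.37% of all genes) and lower in 3 (9.66% of all genes). Sdhb, the iron-sulfur subunit of succinate dehydrogenase, was lower in KO_MCD, with 86.3, 95.2 and 131 CPM, against 146 and 171 CPM in WT_MCD. Its fitted log2 fold change of -0.61 (SE 0.28) had an unadjusted p of 0.066 and an adjusted p of 1 in edgeR, and the WT_NCD libraries had 129 and 135 CPM.

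Ndufa9, an accessory subunit of complex I, had 130, 130 and 138 CPM in KO_MCD and 152 and 164 CPM in WT_MCD. Cox5a, a structural subunit of complex IV, had 5.97, 12.96 and 12.7 CPM in KO_MCD and 13.6 and 20.5 CPM in WT_MCD. Ndufv3 was the 1 member whose KO_MCD libraries all lay higher, with 66.1, 78.6 and 101 CPM, against 56.7 and 56.4 CPM in WT_MCD, with a fitted value of 0.53 (SE 0.32, edgeR adjusted p = 1) that was 0.36 without KO_MCD replicate 3. For Ndufa9 and Cox5a, KO_MCD lay below WT_MCD in every library.

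Ndufa13, an accessory subunit of complex I also known as GRIM-19, had 15.01, 11.3 and 28.7 CPM in KO_MCD and 21.9 and 40.1 CPM in WT_MCD. Ndufv2, a core flavoprotein subunit, had 33.2, 23.4 and 49.6 CPM in KO_MCD and 42.6 and 61.9 CPM in WT_MCD. Both overlapped, and in both KO_MCD replicate 3 lay above WT_MCD replicate 1. Of members with a fitted value above 0, Cox7b, a small subunit of complex IV, had 28.3, 19.1 and 38.9 CPM in KO_MCD and 19.99 and 24.4 CPM in WT_MCD. Atp5k, the e subunit of ATP synthase, had 2.23, 0.0906 and 1.81 CPM in KO_MCD and 0.372 and 0.630 CPM in WT_MCD, and its lowest value rests on 2 counts, under the 3-count floor.

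The remaining subunits of succinate dehydrogenase were less separated than Sdhb. Sdha had 577, 561 and 669 CPM in KO_MCD, 590 and 663 CPM in WT_MCD, with 445 and 939 CPM in WT_NCD. Sdhc, a membrane anchor, had 58.9, 39.1 and 79.5 CPM in KO_MCD, 56.9 and 106 CPM in WT_MCD, with 78.5 and 101 CPM in WT_NCD. Sdhd had 248, 196 and 314 CPM in KO_MCD, 250 and 380 CPM in WT_MCD, with 324 and 503 CPM in WT_NCD. Of these 3 genes, KO_MCD was apart from another group in Sdhd alone, where all its libraries lay below both WT_NCD libraries (log2 fold change -0.71, SE 0.34, edgeR adjusted p = 0.581). Leaving out WT_NCD replicate 2 gave -0.35 for Sdhd. The values of Sdha, Sdhc and Sdhd for KO_MCD over WT_MCD were -0.06, -0.46 and -0.32, and without WT_MCD replicate 2 they were 0.028, 0.055 and 0.013.

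Against the control-diet wild type, KO_MCD combined the difference in genotype with that in diet, and this comparison shares its libraries with both others. No subunit gene passed (edgeR background 0.0%, smallest adjusted p among members 0.413). At an unadjusted p under 0.05 there was 1 member, Cox6a2, against 8.97% of genes. DESeq2 called 1 member, Cox6a2, against 3.85% of genes, and limma voom called 0. The fitted value was below 0 for 52 members and above 0 for 26, against 52.8% of all genes above 0, and the median was -0.26 for members and 0.06 for all genes. Without KO_MCD replicate 3, 15 members were above 0, and without both libraries highest in macrophage genes 28 were.

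The libraries of KO_MCD and WT_NCD did not overlap in 9 members, against 26.1% of all genes. Cox6a2, Cyc1 and Uqcr11 were higher in KO_MCD (13.4% of all genes), and the members lower in KO_MCD (12.8% of all genes) included Ndufs3, Sdhd, Atp5h, Ndufb11 and Uqcrc1. Uqcr11, a small subunit of complex III, had 12.7, 12.7 and 24.5 CPM in KO_MCD and 7.18 and 11.6 CPM in WT_NCD. Cyc1 had 137, 145 and 165 CPM in KO_MCD against the WT_NCD values given above, a log2 fold change of 0.39 (SE 0.25, edgeR adjusted p = 0.651). Its deficient-diet libraries of both genotypes lay above both control-diet libraries, and the share of all genes with this split was not counted.

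Ndufs3 had a log2 fold change of -1.49 (SE 0.70, edgeR adjusted p = 0.580) for KO_MCD over WT_NCD. Cox7a2l had 355, 273 and 420 CPM in KO_MCD, so that 1 library lay within the WT_NCD range, and it was fitted at -0.69 (SE 0.32, edgeR adjusted p = 0.580). That value was -0.23 without WT_NCD replicate 2 and -1.03 without both libraries highest in macrophage genes. Atp5c1 had 303, 220 and 388 CPM in KO_MCD, 315 and 364 CPM in WT_MCD, with 350 and 544 CPM in WT_NCD, with overlap between all groups.

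**Figure D5:**
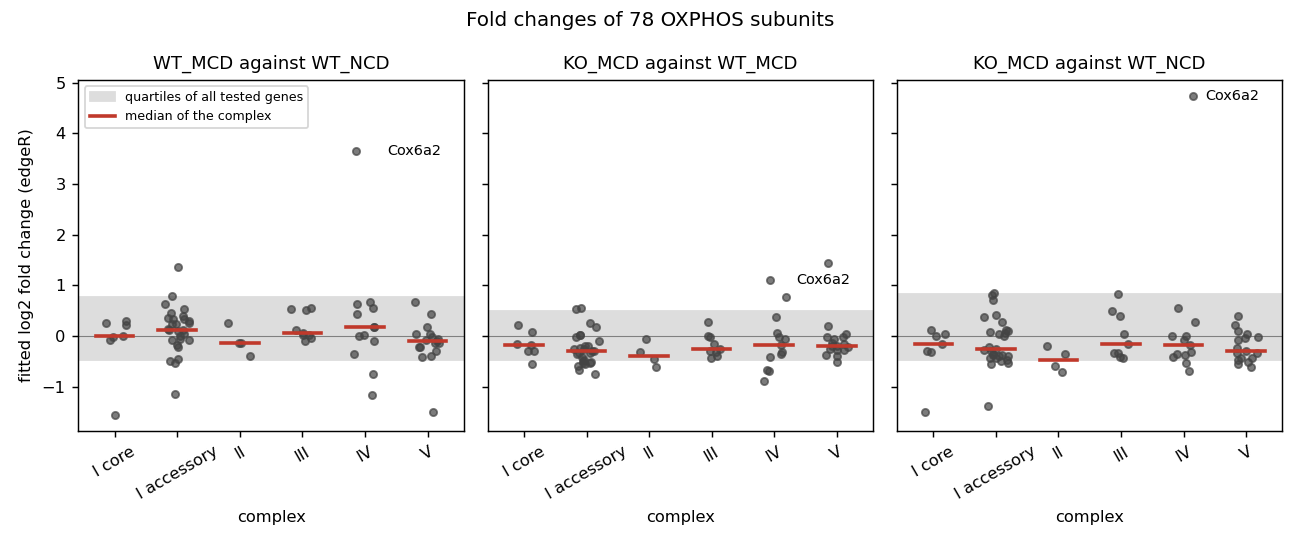
Fitted log2 fold change (edgeR) of each of the 78 subunit genes by complex for WT_MCD over WT_NCD, KO_MCD over WT_MCD and KO_MCD over WT_NCD. Red lines are complex medians and grey bands the quartiles of all tested genes. Cox6a2 lies far above the other members at 3.64 and 4.74 in the comparisons with WT_NCD, and the complex II medians are -0.14, -0.39 and -0.47. Without both libraries highest in macrophage genes, which is not drawn, the complex II medians were -0.75, 0.02 and -0.71.

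Genes outside the nuclear subunits were read from lists of related function. Of all genes, 47.9% had a fitted value above 0 in KO_MCD over WT_MCD, 52.8% in KO_MCD over WT_NCD and 52.3% in WT_MCD over WT_NCD. Of the 13 subunits encoded in mitochondrial DNA, 10 had enough counts to be tested, and none passed. Fitted values were above 0 for 9 of 10 in KO_MCD over WT_MCD (median 0.34), for 9 of 10 in KO_MCD over WT_NCD (median 0.44) and for 7 of 10 in WT_MCD over WT_NCD (median 0.15). The smallest p belonged to mt-Nd1, a core subunit of complex I, with a log2 fold change of 0.97 (SE 0.38, edgeR adjusted p = 0.540) for KO_MCD over WT_NCD. The library medians of these 10 genes were -0.04, -0.0029 and 0.72 in KO_MCD, 0.22 and -0.30 in WT_MCD, and -0.37 and -0.0031 in WT_NCD. They were highest in KO_MCD replicate 3, as the nuclear subunits nearly were, and low in WT_MCD replicate 2, where the nuclear subunits were highest. In KO_MCD replicates 1 and 2 they lay below WT_MCD replicate 1.

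Of 45 tested assembly factors, which build the complexes without staying in them, 14 were above 0 for KO_MCD over WT_MCD, 16 for KO_MCD over WT_NCD and 21 for WT_MCD over WT_NCD. Tmem126b, needed to assemble complex I, had the smallest p, with a log2 fold change of -1.53 (SE 0.29, edgeR adjusted p = 0.251) for KO_MCD over WT_NCD and -1.18 (SE 0.33, edgeR adjusted p = 0.711) for WT_MCD over WT_NCD. Of 13 tricarboxylic acid cycle enzymes, which supply NADH and succinate, 5 were above 0 for KO_MCD over WT_MCD, 2 for KO_MCD over WT_NCD and 6 for WT_MCD over WT_NCD.

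Of 12 tested regulators of mitochondrial genes, 6 were above 0 for KO_MCD over WT_MCD, 5 for KO_MCD over WT_NCD and 4 for WT_MCD over WT_NCD, and Myc had the smallest p with a log2 fold change of 1.07 (SE 0.32, edgeR adjusted p = 1) for KO_MCD over WT_MCD. Of 15 mitochondrial carriers and membrane proteins, 4 were above 0 for KO_MCD over WT_MCD, 7 for KO_MCD over WT_NCD and 9 for WT_MCD over WT_NCD, and Tomm40, the channel of the outer membrane import complex, had 1.35 (SE 0.34, edgeR adjusted p = 0.683) for WT_MCD over WT_NCD. No gene of these lists passed the test in any of the 3 comparisons. Summed levels of 10 genes of dividing cells were 695, 598 and 835 CPM in KO_MCD, 962 and 933 CPM in WT_MCD, with 2392 and 3040 CPM in WT_NCD. These sums did not overlap between groups, and the share of all genes with such a split was not counted. Hmgb2 made up much of them, with 479, 437 and 484 CPM in KO_MCD. The library medians of the 10 genes were -1.23, -1.50 and -0.39 in KO_MCD, -0.45 and 0.25 in WT_MCD, and 1.03 and 1.52 in WT_NCD. By these medians KO_MCD and WT_MCD overlapped. The part of dividing cells in the subunit results was not tested.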

How the data were processed

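The authors deposited raw gene counts for 7 libraries, 1 column each, matched to samples by title. The submitters' processing notes name HISAT2 2.1.0 as a tool and GRCm38 as the genome build. For the counting tool, annotation and strand setting, nothing is given in the sources used here. Symbols, gene types, transcript lengths and exon overlaps came from GENCODE M21 (GRCm38), in which 191 of the 53465 identifiers were not found. Of the 78 members, 28 share exon bases with another gene, 5 of them on the same strand.

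Counts were tested with edgeR 4.0.16 (quasi-likelihood test, all 7 libraries in one fit, TMM scaling, filterByExpr at a count of 10) in R 4.3.3, and p-values were adjusted by Benjamini-Hochberg over all 14784 genes tested. CPM values are TMM-scaled, and log2 CPM has a prior count of 2. The fit was tested on simulated data with 50 changed genes of each size per comparison. It recovered 0 of the 2-fold changes in every comparison. At 4-fold it recovered 3 in WT_MCD over WT_NCD, 3 in KO_MCD over WT_MCD and 7 in KO_MCD over WT_NCD. At 64-fold it recovered 34, 35 and 36 in the same order. A gene that did not pass is therefore not shown to be unchanged. The fit's common dispersion of 0.833 over all tested genes corresponds to a biological coefficient of variation of 91.3%. Within groups, pairs of libraries differed by more than sampling noise, with 91.0 to 334 chi-square units per degree of freedom. DESeq2 1.42.0, limma 3.58.1 (voom), other scalings and filters, a replicate block and leaving out libraries were tried as alternatives. A level per kilobase divides CPM by the median length of a gene's protein-coding transcripts.

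Named genes were Nt5e, per comparison the 4 members with the smallest p in each direction, complex II, isoform families, the highest and lowest member of each complex, and 1 gene per related list. Members named for non-overlapping libraries (Ndufa9, Cox5a, Atp5h, Ndufb11, Uqcrc1) were added after their values were seen. So were Kbtbd4, Itgad, Siglech, Bst2, Lyz2, Hmgb2 and the genes of steadiest and widest range. The members and lists were chosen with earlier results of these data known. The values of 1 member are not reported here, though it is counted in all totals.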

Additional observations from a re-analysis of the deposited data

How the results depend on the processing

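Of 624 values of single subunits over all alternatives, 611 kept their direction and side of the threshold, 12 reversed and 1 passed the threshold, and Cox6a2 and Cyc1 kept their direction throughout. Most of these subunits were chosen for a small p in the same data, and none passed in the main fit. Some alternatives left out a library outside the comparison, which can move a value only slightly. The 611 is therefore no measure of how firm the values are. The subunits called in KO_MCD over WT_NCD were 1 with DESeq2 (Cox6a2, 4.77). In KO_MCD over WT_MCD, members above 0 were 26 without scaling, which moved the median of all genes from -0.03 to 0.07, and Sdha became 0.057. The cause was not tested. Without the low-count filter edgeR called 54 genes in WT_MCD over WT_NCD, 1 in KO_MCD over WT_MCD and 140 in KO_MCD over WT_NCD, against 0 with it, and 0 members.

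Deviations of same-numbered libraries from their group means were nearly uncorrelated over the tested genes (-0.102 to 0.03). In groups of 2 libraries the deviations mirror each other, so these values are not separate checks. Whether libraries were prepared in pairs cannot be told from them. With the replicate block, 17 members were above 0 in KO_MCD over WT_NCD and Atp5k became -0.16 in KO_MCD over WT_MCD. In no comparison did the block call a member. With the replicate numbers of the diet comparison crossed, 39 members were above 0 and 0 were called.

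Leaving out both libraries highest in macrophage genes, chosen after seeing the data, left 19 members above 0 in WT_MCD over WT_NCD and 48 in KO_MCD over WT_MCD, with a median of 0.11 there and values of 0.028, 0.055 and 0.013 for Sdha, Sdhc and Sdhd. Each such fit leaves 1 library in the arms concerned, assumed to vary like the others.

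Leaving out 1 library at a time, members above 0 ran from 22 to 56 in WT_MCD over WT_NCD, 12 to 48 in KO_MCD over WT_MCD and 15 to 37 in KO_MCD over WT_NCD. The member median ran from -0.23 to 0.33, -0.46 to 0.11 and -0.49 to -0.05 in the same order. Sdha ran from -0.58 to 0.50 and Sdhc from -0.65 to 0.22 in WT_MCD over WT_NCD. In KO_MCD over WT_MCD, Sdha ran from -0.14 to 0.028, Sdhc from -0.80 to 0.055 and Sdhd from -0.55 to 0.013, and in KO_MCD over WT_NCD Sdha ran from -0.64 to 0.44. With 2 or 3 libraries a group and a common coefficient of variation of 91.3% over all tested genes, the test could miss moderate and even large differences. The median within-group SD of log2 CPM was 0.50 for members, against 0.76 for all tested genes. Genes that did not pass are not shown to be unchanged. Without both libraries highest in macrophage genes, Atp5g1 was 0.10 in WT_MCD over WT_NCD, against 0.67 with them.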
